A study of Mus musculus with 24 samples.

Results

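NPC NADs without overlap in ESCs are nucleolus-associated domains (NADs) called in mouse neural progenitor cells (NPCs) at places where the list of embryonic stem cells (ESCs) holds no NAD. An NPC NAD on chromosomes 1 to 19 was taken when it did not share even 1 base with an ESC NAD. Members were thus chosen by the deposited NAD calls of both cell types, so their calls and scores are described here without a test. Of 1370 NPC NADs on these chromosomes, 290 (21.2%) met the rule, and both lists together hold 3216 NADs (1769 in ESCs and 1447 in NPCs). Chromosome 8 holds 68 of the 290 and is given apart, since NPC NADs cover 77.6% of chromosome 8 and between 16.1% (chromosome 7) and 32.4% (chromosome 13) of every other autosome.

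The study mapped NADs with Nucleolar-DamID, in which the bacterial adenine methylase Dam, fused to histone H2B with a nucleolar localisation signal (H2B-Dam-NoLS), marks GATC sites near nucleoli, and H2B-Dam without the signal serves as the control. ESCs (the E14 line) and NPCs each have 2 samples with the signal and 2 without it, all from single cell clones that carry the transgene at the Rosa26 locus. Doxycycline (100 ng/ml) switched the fusion protein on, Shield1 (1 µM) stabilised it, and both acted for 15 h. NPCs came from 8 days of differentiation, with retinoic acid (2 µM) for the final 4 days. For DamID they were then dissociated, reseeded, induced and harvested the day after. Polyadenylated RNA was sequenced from 3 replicates of each cell type and given as RPKM, which scales reads to exon length and library size. The deposited lists hold 1 score per NAD for both experiments of a cell type, so no replicate spread exists for a NAD, and effects of batch cannot be separated from those of cell type.

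Nucleoli form around the ribosomal RNA genes, and the chromatin at their border is largely heterochromatin. Much of it is poor in genes, replicates late and also contacts the nuclear lamina in other cells or at other moments. When stem cells become neural progenitors, pluripotency genes are shut down, neural genes are switched on and contacts of chromatin with the nuclear periphery and nucleoli are rearranged.

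The RNA-seq samples matched their labels at the main markers. Pou5f1, a core pluripotency factor, had 130.0, 136 and 202 RPKM in the ESC samples and 0.0558, 0.0386 and 0.0651 in the NPC samples, and all 6 ESC markers were lower in NPCs. Of 6 NPC markers 4 were higher (Pax6, Nes, Sox1 and Hes5), Vim passed no threshold (adjusted p = 0.205, limma) and Fabp7 was too low to be tested. Markers of endoderm rose as well, 4 of 4, with summed levels of 0.0977, 0.115 and 0.0834 RPKM in ESCs and of 14.6, 16.0 and 15.5 RPKM in NPCs. Gata6, a transcription factor of primitive endoderm, was the most abundant of them at 6.69 RPKM, and no endoderm marker was at 0 in NPCs. Of 3 mesoderm markers 1 rose, and of 3 neural crest markers 1 fell. Of 5 neuronal markers 2 fell, and the other 3, too low to be tested, were higher in every NPC sample (Dcx at a mean of 0.916 RPKM, Elavl3 at 0.826 and Map2 at 0.147). The part of endoderm-like cells in the differences below was not tested.

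ESC replicate 3 stood apart from the other ESC samples. Its RPKM values sum to 141243, against 105011 and 106892 in ESC replicates 1 and 2 and 86130 to 87367 in the NPC samples. Ribosomal protein genes made up 28.8% of its sum (18.4% and 18.97% in the other ESC samples) and mitochondrial genes 6.39% (15.5% and 14.3%). Its log2 values correlated with those of ESC replicates 1 and 2 at 0.963 and 0.966, while these correlated with each other at 0.999. Results that rest on it are therefore given with and without it.

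Outside chromosome 8, 222 of 1270 NPC NADs (17.5%) were members. They span 37.2 Mb, which is 6.21% of the NPC NAD bases there and 1.59% of the chromosomes. Chromosome 6 carries the most, 28, and chromosome 17 the fewest, 4. As a share of the chromosome's own NPC NADs, members ranged from 8.89% on chromosome 17 to 29.6% on chromosome 14, with chromosome 6 at 29.5%. Members were therefore spread over all of these chromosomes, with chromosomes 6 and 14 at the upper end on either count.

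Most members had the length of 1 bin. NADs were called in bins of about 100 kb, and 165 members (74.3%) are 1 bin long, 27 are 2 bins, 20 are 3 to 5 bins and 10 are longer. Among the 1048 NPC NADs that overlap an ESC NAD, 35.1% are 1 bin long. The median member measures 99.8 kb (quartiles 99.3 and 199 kb), the median NPC NAD with overlap 299.7 kb, and the median of the 534 ESC NADs without overlap in NPCs 100.4 kb. The shortest member, chr17:63403115-63499065, has 96.0 kb. The longest, chr2:136899779-138400265, has 1500.5 kb and holds Jag1, a ligand of Notch receptors, with parts of Slx4ip and Btbd3. Other long members lie at chr16:51301160-52299429 (998 kb), chr6:61102914-62000449 (898 kb), chr4:70400388-71199348 (799 kb) and chr14:90100684-90898388 (798 kb). The score of the longest, 0.0384, ranks only 96 of 222. Length in bases and score had a Spearman's rho of 0.0251 (n = 222 members of the same libraries). Since 165 members are 1 bin long, most of these length ranks differ only by where a border fell near the bin edge. The value therefore does not tell whether members of more bins scored differently.

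The borders of the members carry the mark of the method, and those of the longest member are shown for this reason. All 444 borders outside chromosome 8, like all 6432 borders in both lists, fall inside a GATC, the site that Dam methylates. They lie at a median of 312 bases from a multiple of 100 kb, and 395 of them lie within 1 kb of one, so the borders show the bin edges and not a sharper transition. The sequences are from the plus strand of the RefSeq genome GRCm38 (mm10), at chr2:136899759-136899798 in an intron of Slx4ip and at chr2:138400246-138400285 in an intron of Btbd3, with the GATC at the border in capitals.
Lower border of the chromosome 2 member: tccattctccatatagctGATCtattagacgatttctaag
Upper border of the chromosome 2 member: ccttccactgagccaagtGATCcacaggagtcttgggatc

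Members lay along the whole length of their chromosomes. With each chromosome cut into 5 equal parts, 36 members fall in the part next to the centromere and 36 in the part at the other end, and the median position is at 48.8% of the length. The nearest ESC NAD was at a median distance of 300.1 kb, which is also about the smallest spacing that NADs of 1 list keep outside chromosome 8 (300.006 kb in NPCs and 296.0 kb in ESCs). Just inside the rule, 24 members touch an ESC NAD end to end, and 65, these included, lie within about 100 kb of one. The nearest that do not touch were chr1:67400034-67499975, 0.235 kb away, chr16:89300347-89399923, 0.401 kb away, and chr14:89000239-89399787, 0.405 kb away. Just outside the rule were chr2:103099875-103199798 with 197 shared bases, chr3:79999941-80200093 with 224 and chr3:31500893-31600075 with 247. Such slight overlaps were rare, since 8 of the 1048 NPC NADs with overlap share up to 1 kb with ESC NADs and 597 lie wholly inside them.

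At the far end, 21 members lie more than 1 Mb from any ESC NAD. The most distant is chr7:33801221-33899901 at 5.80 Mb, followed by chr16:97999722-98100111 at 3.50 Mb and chr7:31200143-31300016 at 3.20 Mb. Distance and score were nearly unrelated (Spearman's rho 0.0752, n = 222).

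Scores of members outside chromosome 8 were a little lower than those of NPC NADs with overlap. The score is the authors' ratio between samples with the nucleolar signal and their controls, and the track behind it is a log2 ratio. How 1 score per NAD was formed from that track is not stated in the sources used here, and the score is compared only within the NPC list. Its median was 0.0371 in members (quartiles 0.0335 and 0.0423, range 0.0203 to 0.137) and 0.0416 in NPC NADs with overlap. Among 1-bin NADs alone the medians were 0.0373 and 0.0510, so the gap is wider at equal length. The median of the whole NPC list is 0.0413, and 67 members (30.2%) reach it. The lowest scores belonged to chr6:115100610-115699138 (0.0203), chr14:110200121-110499928 (0.0263) and chr6:46600478-47001286 (0.0271), all of which are longer than the median member.

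The highest score, 0.137, belonged to chr4:129200596-129401029, a member of 200.4 kb that overlaps the DNA-FISH probe with which the study looked at a region of this kind. It lies 1.23 Mb from the nearest ESC NAD and 2.20 Mb from the next NPC NAD. Its GC content, 47.7%, was the highest of the 222 members. It holds Yars (in part), C77080, Sync, Rbbp4, Zbtb8os and Zbtb8a, whose expression is given further down. Second came chr6:92099683-92200913 with 0.133, which holds Mrps25, a protein of the mitochondrial ribosome, and parts of Nr2c2 and Rbsn. From the third on, scores dropped to 0.0882, 0.0833 and 0.0757, so the first pair stands clear of the other members.

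The chromosome 4 member is shown at its borders, because GATC sites are what the assay reads. The member holds 516 GATC sites, 2.57 per kb. The lower border, chr4:129200576-129200615, lies in an intron of Yars and the upper, chr4:129401010-129401049, between genes (plus strand of GRCm38, GATC in capitals).
Lower border of the chromosome 4 member: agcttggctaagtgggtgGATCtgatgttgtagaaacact
Upper border of the chromosome 4 member: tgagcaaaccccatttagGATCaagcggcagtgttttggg

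The third and the fourth score belonged to members inside imprinted loci, where only the copy from 1 parent is expressed. The member chr12:109602780-109699069 (0.0882) covers all of Rian, a noncoding RNA of the Dlk1-Dio3 locus that hosts small nucleolar RNAs (snoRNAs). The member chr7:143201345-143299813 (0.0833) covers all of Kcnq1ot1, the long antisense RNA that silences its neighbours on the paternal chromosome, and 30.7% of the potassium channel gene Kcnq1 around it. In a list of 46 imprinted genes, written after these values were seen, these 3 were the only ones to overlap a member outside chromosome 8. RPKM of Kcnq1 was at most 0.000277 in ESC samples and at most 0.00652 in NPC samples, so it was hardly expressed in either.

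GENCODE places 30 snoRNA genes in members outside chromosome 8, and 23 of them lie in the chromosome 12 member. Many snoRNAs guide the chemical modification of ribosomal RNA, but no such target is known for those of this locus, which belong to the C/D class, named after a pair of short boxes. TGATGA, the letters of the C box, followed by CTGA, those of the D box, was found on the RNA strand in 15 of the 23 (65.2%) and in 355 of the 1369 snoRNA genes on the autosomes without chromosome 8 (25.9%), which include other classes. The RNA-seq tables used here hold no value for them. Of the 4 shown, AF357428 and AF357341 lie beyond the annotated end of Rian. The 4, all with both boxes (in capitals) and on the plus strand of GRCm38, are AF357425 at chr12:109636012-109636084, DQ267102 at chr12:109656345-109656416, AF357428 at chr12:109679945-109680013 and AF357341 at chr12:109681519-109681593.
AF357425: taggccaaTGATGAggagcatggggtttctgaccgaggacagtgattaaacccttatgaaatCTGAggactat
DQ267102: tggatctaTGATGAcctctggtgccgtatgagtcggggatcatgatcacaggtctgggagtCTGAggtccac
AF357428: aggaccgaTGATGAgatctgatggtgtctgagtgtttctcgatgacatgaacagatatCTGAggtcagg
AF357341: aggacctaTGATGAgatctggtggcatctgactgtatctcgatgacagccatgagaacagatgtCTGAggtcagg

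The same member also holds the microRNAs Mir341, Mir1188, Mir370 and Mir882. In the RefSeq table of GRCm38, 9 microRNA hairpins lie in 6 members outside chromosome 8, and 4 of the 9 are those. No mature sequence listed for the members, chromosome 8 included, shared its seed (bases 2 to 8, in capitals) with another. The mature forms of Mir341 and Mir370 are shown because they come from the member that holds most of the snoRNA genes, at chr12:109611521-109611541 (miR-341-5p), chr12:109611556-109611576 (miR-341-3p), chr12:109618270-109618289 (miR-370-5p) and chr12:109618305-109618326 (miR-370-3p), all on the plus strand.
miR-341-5p: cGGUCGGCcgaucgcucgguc
miR-341-3p: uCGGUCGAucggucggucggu
miR-370-5p: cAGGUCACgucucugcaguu
miR-370-3p: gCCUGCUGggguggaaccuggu

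In base composition members resembled the other NPC NADs, with more repeats. The median GC content was 39.4% in members, 39.7% in NPC NADs with overlap and 41.2% in ESC NADs without overlap, and 41.9% over the whole of these chromosomes. GATC density, which sets how many sites Dam can mark, had medians of 2.54, 2.44 and 2.46 per kb in the same order, with 2.50 on the whole chromosomes. Bases in lower case in the RefSeq sequence, which marks repeats, made up a median of 39.4% of members, 34.6% of NPC NADs with overlap and 31.3% of ESC NADs without overlap (32.6% on the whole chromosomes). Within members, GC content rose weakly with the score (Spearman's rho 0.274, n = 222), and GATC density did not follow it (0.0308). The range of GATC density, 1.82 to 3.53 per kb, shows that no member lacked sites. Single members held long stretches without one, against a median longest stretch of 2.64 kb. It was 54.3 kb in chr14:19399524-19499617, which has the score of rank 6, and 33.8 kb in chr1:22400018-22499932.

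Genes were sparse in members outside chromosome 8. They overlap 212 genes of the RNA-seq tables, which is 5.70 genes per Mb, against 6.27 in NPC NADs with overlap, 8.80 in ESC NADs without overlap and 8.40 on the whole chromosomes. Counting any overlap raises the density more in short regions, so these values are not on the same footing. By transcription start, members had 4.11 genes per Mb. Of the 222 members, 107 hold no gene of the tables, 65 hold exactly 1 and 5 hold at least 5. The count reached 8, among others in chr9:109700484-109999811, which holds Cdc25a, a phosphatase that drives the cell cycle, Map4, a microtubule-associated protein, the antimicrobial peptide gene Camp, and Nme6, Spink8, Fbxw18, Fbxw26 and Fbxw27. Next came chr7:5100143-5300008 with 6 genes, among them the pheromone receptor genes Vmn1r55, Vmn1r56 and Vmn1r57, the chromosome 4 member with 6, and chr2:88798856-88899545 with 5 olfactory receptor genes. Genes often reach beyond the member, since 96 of the 212 lie inside only in part.

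Most of these genes were hardly expressed. Of the 212, 151 (71.2%, 95% Clopper-Pearson interval 64.6 to 77.2%, which covers counting error only) stayed below a mean of 1 RPKM in both cell types, against 62.4% of all genes of these chromosomes, 66.6% of those in NPC NADs with overlap and 69.9% of those in ESC NADs without overlap. In all 6 samples 45 of them were at 0. A gene of at least 1 RPKM in either cell type was found in 42 members, and 73 members hold only lower ones. The median score was 0.0362 in members without a gene, 0.0376 in those with low genes only and 0.0400 in those with a gene of at least 1 RPKM. Members with expressed genes thus did not have lower scores than the empty ones.

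For expression, limma compared 3 NPC with 3 ESC samples on log2(RPKM + 1), and p values were adjusted by Benjamini-Hochberg across 7757 genes. On this scale differences of genes near 0 are understated. In bulk RNA, fewer cells of a type and less RNA per cell cannot be told apart. The filter, at least 1 RPKM in at least 3 of the 6 samples, kept 59 of the 212 genes, and Ip6k2 and Srp54a, whose symbols stand on more than 1 line of the tables, were left out before it. Of the 59, 20 (33.9%) were higher in NPCs, where 37% of all tested genes were higher, and 14 (23.7%) were lower, where 33.1% of all were lower (70.2% of all tested genes passed in either direction). The other 25 passed no threshold. With all samples and this scaling the members' shares lay below those of all tested genes in either direction, which did not hold for lower genes in other runs given next. The median log2 difference was 0.06 over the 59 and 0.03 over all, and over the 59 it turned to -0.06 both without ESC replicate 3 and with the common median. Of the 20 risers, 10 had a mean of at least 1 RPKM in both cell types, and the filter let the others pass through the NPC samples. Of the 14 fallers, 11 had such means, and Zbtb8a, Mtfr2 and Rpp30 passed through the ESC samples.

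These counts depended on single libraries. Without ESC replicate 3, 21 genes were higher and 28 lower, with all 20 and all 14 among them. This makes 35.6% and 47.5% of the 59, against 44% and 43.9% of all tested genes. Without NPC replicate 1, 2 or 3, 16 genes were higher and 8 lower in each case (27.1% and 13.6%), against 32.2% to 32.8% and 26.6% to 26.7% of all. With every sample shifted to a common median, the median difference of all tested genes moved by -0.12, and 16 genes were higher and 24 lower (27.1% and 40.7%, against 32.9% and 38.2% of all). The members' share of lower genes was thus above that of all tested genes with the common median and without ESC replicate 3, and below it otherwise with this filter. No gene of the members changed from higher to lower or back in any of these runs.

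Tia1 encodes an RNA-binding protein of stress granules and splicing. On the log2(RPKM + 1) scale, which understates rises from near 0, Tia1 rose most of all tested genes in members outside chromosome 8. It had 2.29, 2.16 and 1.11 RPKM in ESCs and 10.2, 10.0 and 9.42 in NPCs, a log2 difference of 1.96 ± 0.176 (SE, n = 3 each, limma adjusted p = 8.93e-05). The NPC samples all lie far above the ESC samples, also when ESC replicate 3, the lowest, is left out (1.76). The gene lies wholly in the 1-bin member chr6:86400465-86499920.

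Ednrb and Alcam went from near 0 to low levels, and Atp2b1 rose from a higher start. Ednrb, the endothelin receptor needed in neural crest cells, was at 0, 0.000996 and 0 RPKM in ESCs and at 1.94, 1.94 and 2.16 in NPCs (log2 difference 1.59, adjusted p = 2.84e-07). Alcam, a cell adhesion molecule of axons and immune cells, had 0.00501, 0.00477 and 0.00158 RPKM in ESCs and 2.99, 2.45 and 2.29 in NPCs (1.83, adjusted p = 1.81e-06). In both cases the groups lie far apart, and of Alcam only 24.6% lies in its member, at chr16:51301160-52299429, its start being outside. Atp2b1, a calcium pump of the plasma membrane, had 1.35, 1.28 and 0.614 RPKM in ESCs and 4.69, 4.23 and 4.53 in NPCs (1.42, adjusted p = 0.000221). All NPC samples were again above all ESC samples.

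Basp1, a membrane protein of growing axons and the only member gene among 57 neural progenitor and patterning genes, rose from 0.209 ± 0.0194 to 2.55 ± 0.274 RPKM (SD, n = 3), by 1.55 on the log2 scale. Of the 34 tested genes of that whole list 29 rose and 2 fell. Guf1, a translation factor of mitochondria, rose from 1.81 ± 0.240 to 6.64 ± 0.0534 RPKM and Tram1l1 from 0.123 ± 0.0163 to 2.45 ± 0.234 RPKM. Tagln3 (0.95), Zfp606 (0.86), the ubiquitin-conjugating enzyme gene Ube2h (0.85), the actin- and myosin-binding gene Cald1 (0.77) and Ikbip (0.77) complete the 12 largest rises in log2 difference. In each of the 12 the lowest NPC sample was above the highest ESC sample, which is common here, since the groups do not overlap in 43 of the members' 59 tested genes (72.9%) and in 79.98% of all tested genes. The remaining 8 risers had log2 differences from 0.23 (Tbc1d20) to 0.68 (Cpsf6), both named after their values were seen.

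Among the genes that fell, 4 lie in the chromosome 4 member with the highest score, 3 of them among the largest falls. C77080 had 6.23, 6.46 and 3.62 RPKM in ESCs and 1.30, 1.30 and 1.36 in NPCs, and fell by 1.44 on the log2 scale (SE 0.188, limma adjusted p = 0.000564). Yars, the tyrosyl-tRNA synthetase gene, had 7.35, 7.27 and 10.4 RPKM in ESCs and 2.98, 3.09 and 3.38 in NPCs, and fell by 1.15 (adjusted p = 0.00041). Zbtb8a, a zinc finger gene, had 1.42, 1.40 and 1.78 RPKM in ESCs and 0.169, 0.160 and 0.140 in NPCs, and fell by 1.13 (adjusted p = 8.59e-06). For these 3 genes every NPC sample lies below every ESC sample, and the calls hold without ESC replicate 3, at -1.66 for C77080 and -1.06 for Zbtb8a. Zbtb8os, its neighbour, had 1.72, 1.72 and 3.31 RPKM in ESCs and 1.19, 1.07 and 1.06 in NPCs (log2 difference -0.59, adjusted p = 0.0263). Much of that difference came from ESC replicate 3, without which it was -0.37, and the call was lost without any 1 of the NPC replicates (-0.62 to -0.58).

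Rbbp4, a histone-binding subunit of several chromatin complexes in the same member, had 16.4, 16.4 and 18.2 RPKM in ESCs and 14.7, 14.2 and 14.3 in NPCs. Its NPC values are all lower, but the log2 difference of -0.23 just missed the threshold (adjusted p = 0.0584), which it passed without ESC replicate 3 (-0.18). Sync, a gene of muscle intermediate filaments, was too low to be tested, at 0.172, 0.167 and 0.0403 RPKM in ESCs and 0.0364, 0.0841 and 0.0636 in NPCs. So no gene of this member rose. The sample labels name an RNA library kit without strand information and the methods of the study a stranded one. In this member C77080 and Yars overlap at their ends on opposite strands, as do Sync and Rbbp4, and Zbtb8os and Zbtb8a. On chromosome 7, Kcnq1 and Kcnq1ot1 overlap on opposite strands along all of Kcnq1ot1.

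Outside that member the largest fall was that of Cdc5l, a core component of the spliceosome, with 6.70, 5.92 and 5.28 RPKM in ESCs and 2.101, 2.01 and 1.91 in NPCs (log2 difference -1.21, adjusted p = 4.73e-05). Mrps25, in the member with the next highest score, fell by 0.93 (adjusted p = 0.00761), from 2.99, 2.92 and 5.72 RPKM to 1.54, 1.49 and 1.41. ESC replicate 3 is by far its highest sample, and the difference without it was -0.67, still past the threshold. In the same member Rbsn passed no threshold (0.23) and Nr2c2 was not tested. Map4 (-0.69), Mtfr2 (-0.50) and the splicing regulator Tra2b (-0.49) were lower as well and kept their calls without any 1 sample. Nme6 (-0.54), Hnrnpc (-0.42) and Rpp30 (-0.41) lost theirs without any 1 NPC replicate, and without ESC replicate 3 their differences shrank to -0.32, -0.28 and -0.24, with the call kept.

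The most abundant genes of the members went either way. Hsp90b1, the heat shock protein of the endoplasmic reticulum, led with 49.0, 44.2 and 52.0 RPKM in ESCs and 38.4, 39.4 and 38.2 in NPCs. All NPC values are lower (log2 difference -0.31, adjusted p = 0.0382), and the call was lost without ESC replicate 1 (-0.30) or without any 1 NPC replicate (-0.33 to -0.30). Ssr3, a subunit of the complex that aids protein translocation into the endoplasmic reticulum, rose from 24.6, 23.5 and 18.1 RPKM to 33.9, 33.4 and 35.8 (0.63, adjusted p = 0.00642). Next in abundance came Rbbp4, Hnrnpc, a protein that packages nascent RNA (17.3 ± 3.29 and 12.5 ± 0.263 RPKM), Tra2a (14.0 ± 1.02 and 14.7 ± 0.149 RPKM, no call) and the kinase gene Csnk1a1. Csnk1a1 rose from 11.97 ± 1.08 to 15.0 ± 0.336 RPKM (0.30, adjusted p = 0.0282), a call lost with the common median (0.19), without ESC replicate 2 (0.32) and without any 1 NPC replicate (0.29 to 0.32). Of these 6, Ssr3, Rbbp4, Tra2a and Csnk1a1 lie wholly in their members, Hsp90b1 to 63.1% with its start outside and Hnrnpc to 13.7%, so a call as NAD did not go along with silence of every gene inside.

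Gene families were looked up among members outside chromosome 8, where 212 of 19603 genes (1.08%) lie. The lists were chosen with earlier results of these data known, so their shares in members are described without a test. Sensory receptor genes were present and nearly silent, as they were outside members. Members hold 19 of 1122 olfactory receptor genes (1.69%), in small groups such as Olfr1202 to Olfr1208 on chromosome 2, and 16 of the 19 were at 0 in every sample. They also hold 11 of 385 genes of a list of vomeronasal, taste and Mas-related receptors, of which 4 are Mas-related (Mrgprb2 to Mrgprb5), and all but Mrgprb3 were at 0 in every sample. None of these passed the filter, and of the whole lists 0 and 1 did. Of other families of tissue-restricted genes, members hold 6 of 142 genes of steroid, retinol and drug metabolism (4 of them Cyp4a genes). They also hold 2 of 78 serpins and defensins and 3 of 99 cadherins, protocadherins and desmogleins. None of these reached the filter, and few genes of the whole lists did (5 of the 142, 5 of the 78 and 13 of the 99). Their absence from the test thus says little about the members.

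Genes of neurons overlapped members mostly in part. Any overlap counted, so long genes had more room to meet a member. The median gene span was 33.6 kb for genes in members and 17.6 kb for all genes of these chromosomes. The counts below are not corrected for gene length. Of 56 synaptic and axonal adhesion genes 6 overlap a member (Lrrc4c, Slitrk3, Negr1, Cntnap2, Cntn3 and Opcml), of 24 neuronal genes also 6 (Rims1, Vip, Klhl1, Plcb1, Btbd3 and Dgki), of 126 voltage-gated channel genes 4 and of 76 neurotransmitter receptor genes 2 (Htr7 and Grm7). None of these 18 reached the filter, which few genes of the whole lists did (15 of the 56, 4 of the 24, 9 of the 126 and 7 of the 76). Cntnap2, a very long gene of axon membranes, has 17.9% of its length in chr6:46600478-47001286 and had means of 0.00427 RPKM in ESCs and 0.0011 in NPCs. Plcb1, a phospholipase of receptor signalling, lies to 98.1% in its member and had 0.00119, 0.000602 and 0.000471 RPKM in ESCs and 0.0197, 0.0164 and 0.0143 in NPCs. All NPC values are above the ESC values, at a level under 0.05 RPKM in either.

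Chromatin and splicing regulators made up 11 of the list genes in members that passed the filter. Of 42 chromatin regulators 8 overlap a member, of which 6 were tested and none passed the threshold (limma), where 70.2% of all tested genes did, and of the 35 tested genes of the whole list 8 rose and 11 fell. Supt16, a subunit of the histone chaperone FACT, had 10.1, 8.95 and 5.38 RPKM in ESCs and 5.55, 5.72 and 5.38 in NPCs (log2 difference -0.44, adjusted p = 0.0972). With the common median Supt16 (-0.56), Smarcad1 (-0.37) and Rbbp4 (-0.34) passed the threshold, so the count of none depends on the scaling. ESC replicate 3 of Supt16 lies about level with the lowest NPC sample. Without that replicate the gene passed the threshold at -0.68, as did Smarcad1, a chromatin remodeller (-0.25 with and -0.44 without). Rad21, a subunit of cohesin, had 13.5, 12.96 and 7.04 RPKM in ESCs and 13.2, 12.2 and 12.2 in NPCs, and its difference turned from 0.20 to -0.07 without ESC replicate 3. Likewise Tet2, which oxidises methylated cytosine, turned from 0.23 to -0.16, so for both the sign rested on that library. Of 59 splicing and RNA-binding regulators 6 overlap a member and 5 were tested, with Tia1 higher, Hnrnpc and Tra2b lower and Tra2a and Igf2bp3 without a call, and of the 40 tested genes of the whole list 13 rose and 9 fell.

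Of 394 zinc finger genes 6 overlap a member, 3 were tested and 2 rose, and of the 213 tested genes of the whole list 116 rose. Zfp606 rose from 0.966 ± 0.161 to 2.56 ± 0.0864 RPKM and Zfp157 from 1.47 ± 0.296 to 2.78 ± 0.0884 RPKM (SD, n = 3). Zfp180 had no call (0.07, adjusted p = 0.465). Hif1a, the oxygen-sensitive transcription factor and the only one of 22 hypoxia and glycolysis genes in a member, passed no threshold (0.20, adjusted p = 0.169). No member outside chromosome 8 holds any of 29 pluripotency genes, 22 germline and early embryo genes, 39 Hox genes, 22 retinoic acid response genes, 19 mesoderm and endoderm markers or 152 keratin and epidermal genes. With 1.08% of all genes in members, lists of this size would hold few or none, so these zeros say little about the members.

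Chromosome 8 differed from the other autosomes in its share of members, its NPC NAD coverage and the length and score of its members. Its GATC density, 2.48 per kb, was near the 2.50 per kb of the others. Of its 100 NPC NADs 68 (68.0%) are members, they span 18.2 Mb or 14.0% of the chromosome, and NADs cover 77.6% of it in NPCs and 19.5% in ESCs. Members there had a median length of 200.1 kb, a median score of 0.0560, with 59 of 68 (86.8%) at or above the median of the NPC list, and a median GC content of 44.6% (42.4% on the whole chromosome). None touches an ESC NAD, 3 lie within about 100 kb of one and 31 lie more than 1 Mb away. The spacing was different too, an observation chosen after its values were seen. Of the 100 NPC NADs on chromosome 8, 95 lie less than 290 kb from the next one, with a smallest gap of 3158 bases, while no NPC NAD elsewhere and no ESC NAD on any chromosome does. When NPC NADs under this distance were joined first, chromosome 8 went from 100 to 23 NADs, the longest of 19.7 Mb, and from 68 to 11 members of 5.80 Mb in all, and no NAD outside chromosome 8 was joined. The number of members there is therefore not on the same footing as elsewhere.

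Members of chromosome 8 were rich in genes. They overlap 267 genes, 14.7 per Mb, against 6.87 on the rest of the chromosome. Genes that cross a member's border count as inside, which raises the first value and lowers the second. Of the 267, 49.8% stayed below 1 RPKM in both cell types, against 55.8% of the genes on the rest of the chromosome. The highest score, 0.147, belonged to chr8:69899536-70100291, which holds 9 genes, among them Gatad2a, a subunit of the NuRD complex, and Ncan, a proteoglycan of brain matrix. Second was chr8:105399100-106200417 (0.141), of 801 kb, with 35 genes, among them Ctcf, the insulator protein. The longest, chr8:88999553-90800344 (1.80 Mb), holds only Sall1 and Tox3 among the genes of the RNA-seq tables, both of them transcription factor genes.

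Of 132 tested genes in chromosome 8 members 43 were higher in NPCs (32.6%) and 56 lower (42.4%). On the rest of the chromosome the shares were 29.2% and 43.4%, so members resembled their own chromosome. Of the 43 and 56, 23 and 48 had a mean of at least 1 RPKM in both cell types, and the others passed the filter through the cell type in which they are high. All of chromosome 8 was shifted, with a median log2 difference of -0.18 over 450 tested genes, the lowest of all chromosomes, where other autosomes ranged from -0.05 to 0.16. The RNA and the NAD lists come from separate cultures, and whether the number of copies of chromosome 8 differed between any of them was not tested.

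Single genes of chromosome 8 members changed most strongly of all members' genes named here. Klf2, a transcription factor of naive pluripotency, had 69.9, 76.6 and 107 RPKM in ESCs and 0.999, 0.811 and 0.909 in NPCs, and fell by 5.46 on the log2 scale (SE 0.167, limma adjusted p = 5.18e-07). Sall1 fell from 16.8, 17.3 and 8.35 RPKM to 1.39, 1.51 and 1.76, by 2.51 (adjusted p = 0.000199). In both, all NPC samples lie far below all ESC samples, and D230025D16Rik (-1.64) and Tdrp (-1.60) followed. Hsd11b2, the enzyme that inactivates glucocorticoids, rose from 0.0337, 0.00567 and 0 RPKM to 9.25, 8.12 and 6.98, by 3.16 (adjusted p = 6.15e-07). Cmtm3 (2.55), the oxygen sensor gene Egln1 (2.14) and the collagen gene Col4a1 of basement membranes (2.14) rose as well.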

How the data were processed

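Nucleolar-DamID lists and RNA-seq tables were used as deposited; ChIP samples were not used here. Per the labels and methods, the authors aligned DamID reads to mm10 (GRCm38) with Bowtie2 2.3.4.3, binned them at 100 kb, normalised H2B-Dam-NoLS to H2B-Dam within each cell type and kept NADs common to both replicates, with 1 score each. How replicates were joined is not stated. The authors deposited RNA-seq as RPKM per sample, without stating annotation or strand setting. Genes were placed by symbol with GENCODE annotation of GRCm38, a gene counting as inside when any part overlapped. A total of 153 symbols on more than 1 line was left out. limma 3.58.1 (R 4.3.3, lmFit, eBayes with trend) was run on log2(RPKM + 1), two-sided, with adjusted p under 0.05. Regions were handled with Python 3.11.15, numpy 2.4.6 and pandas 2.3.3. Read depth relative to ESC replicate 1, from the steps of RPKM values under 0.05, was put at 0.991 and 0.904 for ESC replicates 2 and 3 and at 0.885, 0.801 and 0.949 for NPC replicates 1 to 3. Only a part of the genes with such values gave that ratio, 459 of 3418 in ESC replicate 2 and 134 of 1941 in NPC replicate 3. By this rough estimate no sample was much deeper than another. The members, gene lists and tests were chosen with earlier results of these data known. Named genes are 12 risers and 12 fallers, ranked by log2 difference among called genes of members outside chromosome 8, the 6 with the highest mean RPKM, 4 in each direction on chromosome 8, the genes of the probe's member and list genes in members. Named regions are the longest, shortest, highest- and lowest-scoring, most gene-rich, nearest and most distant members and those nearest to the rule. Alternatives changed the overlap rule, merging of NADs, score thresholds, pseudocount, filter, scaling, fold threshold, replicate block, single samples and gene placement.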

Additional observations from a re-analysis of the deposited data

How the results depend on the processing

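The number of members outside chromosome 8, 222, became 169 with ESC NADs extended by 100 kb on each side, 234 with overlaps of up to 10% ignored, 222 with NPC NADs up to 100 kb apart merged, 67 when only NPC NADs reaching their median score counted and 640 when only such ESC NADs counted, where fewer ESC regions remain to overlap. On chromosome 8 the number, 68, became 66, 73, 35, 59 and 79 in the same order, and 11 with NPC NADs less than 290 kb apart merged, an alternative chosen after seeing the data (222 elsewhere). Of the genes in members outside chromosome 8, 20 higher and 14 lower became 19 and 14 with a pseudocount of 0.1, 17 and 13 with a filter on the mean, 65 and 26 without a filter, which tests 165 genes, 16 and 24 with a common median, 7 and 4 with a log2 difference of at least 1, 16 and 12 with the start inside, and 12 and 8 with the whole gene inside, where fewer genes count. Over all tested genes the shares higher and lower were 37.0% and 33.1% in the main run, 33.3% and 34.5% with the filter on the mean (members 31.5% and 24.1%) and 39.5% and 22.9% without a filter (members 39.4% and 15.8%), and with a log2 difference of at least 1 they were 16.7% and 12% (members 11.9% and 6.78%). The common median moved the split of all called genes from 52.8% to 46.3% higher, and dropping the filter moved it to 63.3%. Leaving out 1 replicate at a time gave 16 to 21 higher and 8 to 28 lower. With the replicate block the counts were 17 and 11. The labels' numbers do not pair the samples, since same-numbered ones correlated at 0.114, -0.0849 and 0.0310 in their deviations. Over 46 tested named genes and all settings, 548 values in total, 492 kept direction and side of the threshold, 43 lost the call, 7 gained it and 6 changed sign, none of a called gene: Tra2a (-0.05) and Zfp180 (-0.04) with the common median, Zfp180 (-0.01), Rad21 (-0.07) and Tet2 (-0.16) without ESC replicate 3, and Ing3 (0.00) without NPC replicate 3. The upper ends over single replicates were 0.13 for Zfp180, 0.35 for Rad21 and 0.44 for Tet2, each without ESC replicate 1. The cause was not tested. The lists hold no depth per NAD, so precision of a single call cannot be given.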

Other observations

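The X chromosome lies outside the rule. There, 39 of 77 NPC NADs (50.6%) overlap no ESC NAD, and these span 11.9 Mb with a median score of 0.0360. NADs cover 16.7% of X in NPCs and 8.12% in ESCs, and no X NAD of either list lies less than 290 kb from the next of its own list, unlike on chromosome 8. The 240 tested genes of X had the highest median log2 difference of all chromosomes, 0.26, with 45.0% higher and 28.8% lower in NPCs.

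By type of gene, members outside chromosome 8 hold 214 protein-coding genes of GENCODE (5.75 per Mb, against 8.47 on the whole chromosomes), 65 lincRNA genes (1.75 against 2.09) and 19 antisense genes (0.511 against 1.19). Processed pseudogenes had 3.82 per Mb in members and 3.67 on the whole chromosomes, and unprocessed pseudogenes 0.833 and 0.744. No gene of any GENCODE type lies in 47 of the 222 members.

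Genes of the members that were too low to be tested include some that were near 0 in ESCs and higher in each NPC sample, named here after their values were seen. Pcdh17, a protocadherin of synapses, had 0.000923, 0 and 0 RPKM in ESCs and 0.272, 0.271 and 0.239 in NPCs. Ltbp1, which binds latent TGF-beta, had means of 0.00567 and 0.686 RPKM, and Phldb2 of 0.0450 and 0.931 RPKM.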
